A study of Mus musculus with 4 samples.

Results

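The 9 genes described here encode chromatin regulators, corepressors and their partners, and the question was where antibodies to Eos and to Helios gave ChIP-seq peaks at them in mouse regulatory T cells (Treg cells). The genes were Brpf1, Arid1a, Wdr5, Chd3, Sin3a, Ncor1, Ncoa2, Emsy and Ldb1, 9 of 21883 protein-coding genes in the annotation. They were chosen by the summit positions of the wild-type peak lists, which held a summit inside them, or a summit whose nearest protein-coding gene end within 100 kb was theirs. By this rule 12 of 1106 anti-Eos peaks and 8 of 469 anti-Helios peaks belonged to them. The values that chose the genes are given as a description, with no test.

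Eos (gene Ikzf4) and Helios (Ikzf2) are transcription factors with zinc fingers that belong to the Ikaros family, and both are expressed in Treg cells, the CD4+ T cells that restrain immune responses. ChIP-seq recovers the DNA that lies near a protein in fixed chromatin. The study made 4 libraries from spleen cells taken with a CD4+CD25+ isolation kit, with anti-Eos or anti-Helios antibody, from wild-type mice and from mice with Eos-flox and Foxp3-Cre, which deletes in cells that express Foxp3. Each group was 1 library, and the 2 knockout libraries were not analysed here. Strain, sex, age and the number of animals per library were not stated in the labels, and the kit selects on surface CD25 and not on Foxp3 itself. The cells were fixed for 10 min in 1% formaldehyde, and each immunoprecipitation used 6 µg of antibody on 5000000 to 10000000 cells.

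Ikaros family proteins act largely by bringing chromatin machinery to DNA. They are known to associate with the NuRD complex, which joins a CHD-family remodelling ATPase to histone deacetylases, and with SIN3 and CtBP corepressors. The genes described here encode chromatin machinery of this and related kinds. The peaks show DNA recovered inside or nearest to these genes and say nothing of the presence of the encoded proteins on chromatin.

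Each peak carries the authors' fold enrichment, taken here as the height of the signal over a local background. That this background comes from a control library is inferred from the deposited values, and which library served as control is not stated in the labels. Were it the matching knockout library, a peak would mark an excess of wild-type over knockout signal. The fragments stacked at each summit were counted back from the fold and p-value of the peak, and ranged from 7 to 106 (median 14) over all anti-Eos peaks and from 9 to 124 (median 18) over all anti-Helios peaks. By the same route the anti-Helios library was estimated to be 1.34 times as deep as the other. Of 10 protein-coding CD4+ T cell and Treg marker genes, 5 had an anti-Eos summit (Cd3d, Il2ra, Ikzf2, Ikzf4 and Tnfrsf18) and 2 an anti-Helios summit (Cd3d and Tnfrsf18), while Foxp3, Ctla4, Cd4, Cd3e and Cd3g had none. Marker genes of B cells (6), CD8 and NK cells (5), myeloid cells (6) and erythroid cells (5) had none in either list. Of all protein-coding genes 4.38% had an anti-Eos and 2.12% an anti-Helios summit, so lists this short can hold few or none. A peak list does not measure expression, so the T cell marker counts are a weak check of the cell type, and the empty lists add nothing to it. All intervals below are 95% and cover counting error only, and with 1 library per antibody there was no replicate error.

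Peaks of both antibodies overlapped at 6 of the 9 genes, at Brpf1, Arid1a, Wdr5, Ncoa2, Emsy and Ldb1. Chd3 and Sin3a had an anti-Eos peak only, and Ncor1 an anti-Helios peak only. Over all protein-coding genes, 4.38% had an anti-Eos summit, 2.12% an anti-Helios summit and 1.54% summits of both. These shares fix the scale, but nothing can be read from the members' own count, since the rule chose genes with summits. Of the 12 anti-Eos peaks 6 overlapped an anti-Helios peak by at least 1 bp, beside 27.9% of the whole list, and of the 8 anti-Helios peaks 6 overlapped an anti-Eos peak, beside 65.9%. The median fold was 7.19 for the 12 anti-Eos peaks and 7.31 for all anti-Eos peaks, and 10.1 for the 8 anti-Helios peaks and 7.66 for all anti-Helios peaks.

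**Figure D1:**
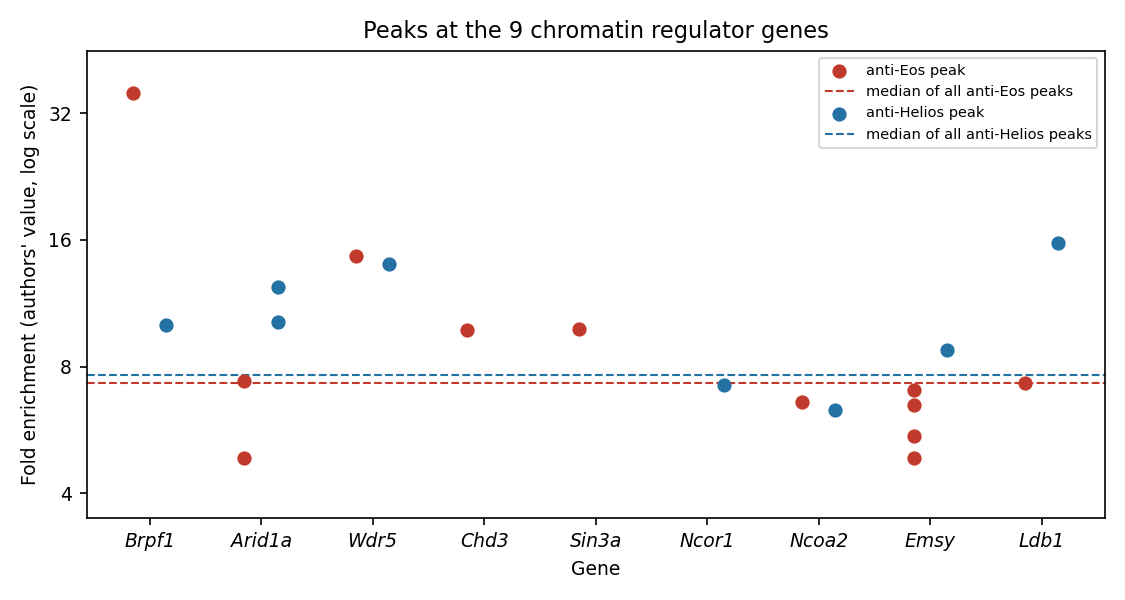
Fold enrichment (authors' value, log scale) of every anti-Eos peak (red) and anti-Helios peak (blue) at the 9 genes, with the median of each whole list as a dashed line. Brpf1 has the highest anti-Eos value (35.7), and Ldb1 the highest anti-Helios value among these genes (15.7).

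Peaks at 6 places could be laid on promoter sequence, because the RefSeq promoter table of build GRCm38.p6 holds a window there. The stretches below lie under a peak and before the annotated start, and are written 5′ to 3′ on the strand of the gene. They are shown because they are the reference DNA under the peaks at the start sites of these genes. At Brpf1 the summits themselves lie just before the printed stretch. Capitals mark GGGAA, the core of the motif known for Ikaros proteins, GGGCGG, a GC box known for Sp and KLF factors, or ACTACAA, part of a motif known for ZNF143, each on either strand.
Brpf1, chr6:113306887-113306973, plus strand: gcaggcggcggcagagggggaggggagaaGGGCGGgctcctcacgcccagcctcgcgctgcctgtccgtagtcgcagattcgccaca
Arid1a, chr4:133756770-133757019, minus strand: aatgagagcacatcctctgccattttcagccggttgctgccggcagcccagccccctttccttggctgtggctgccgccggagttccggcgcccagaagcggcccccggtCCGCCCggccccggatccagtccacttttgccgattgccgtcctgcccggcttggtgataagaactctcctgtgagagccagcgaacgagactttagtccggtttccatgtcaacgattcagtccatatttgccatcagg
Gm13421, the lncRNA gene beside Wdr5, chr2:27540176-27540425, plus strand: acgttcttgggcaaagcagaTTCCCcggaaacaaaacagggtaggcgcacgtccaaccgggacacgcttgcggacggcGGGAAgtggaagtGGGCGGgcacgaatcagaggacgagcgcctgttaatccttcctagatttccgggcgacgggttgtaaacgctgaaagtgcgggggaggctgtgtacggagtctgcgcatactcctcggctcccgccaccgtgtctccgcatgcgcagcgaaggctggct
Ncor1, chr11:62457333-62457432, minus strand: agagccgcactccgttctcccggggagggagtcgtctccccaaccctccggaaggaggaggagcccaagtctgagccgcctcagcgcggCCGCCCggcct
Emsy, chr7:98656651-98656827, minus strand: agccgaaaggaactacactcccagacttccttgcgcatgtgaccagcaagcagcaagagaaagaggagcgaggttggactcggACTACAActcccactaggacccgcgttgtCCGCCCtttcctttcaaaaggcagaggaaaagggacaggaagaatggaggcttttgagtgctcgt
Ldb1, chr19:46039622-46039775, minus strand: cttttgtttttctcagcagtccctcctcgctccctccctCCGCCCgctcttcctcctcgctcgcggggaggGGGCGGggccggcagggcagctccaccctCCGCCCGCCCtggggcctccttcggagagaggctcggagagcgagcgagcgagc

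The letters most often shared by these stretches were those of the GC box. All 6 promoter windows (300 bases, from 250 before to 50 after the start) held GGGCGG, Ldb1 with 4 matches, against 35.7% of all 32851 windows in the table. Windows that held a summit of any gene had it in 59.2% of 314 cases for anti-Eos and 67.0% of 185 cases for anti-Helios. The 6 windows are not all of that kind, since the Brpf1 window held no summit and the Ncor1 window an anti-Helios summit only. GGGAA was found in 2 of the 6 windows, with 3 matches at Gm13421 and 1 at Emsy. Of these matches only 2, both at Gm13421, lay in the stretches printed above. This short motif occurred in 62.7% of all windows, 79.0% of those with an anti-Eos summit and 79.5% of those with an anti-Helios summit. The longer form TGGGAA, which contains it, was in 0 of the 6 windows, in 25.6% of all windows and in 27.4% and 31.4% of those with an anti-Eos and an anti-Helios summit. The ETS-type motif CCGGAAG was in 1 of the 6 windows, at Ncor1, against 8.86% of all windows and 28.7% and 30.3% of those with an anti-Eos and an anti-Helios summit. ACTACAA was in 1 window, at Emsy, against 3.24% of all windows and 4.46% and 7.03% of those with a summit. The remaining motifs searched, TGANTCA for AP-1, CACGTG for E-box factors, TGTGGTT for Runx and CTTTGA for Tcf and Lef, were in none of the 6 windows. They occurred in 7.81%, 7.15%, 5.27% and 16% of all windows, in 3.18%, 11.8%, 6.69% and 9.87% of those with an anti-Eos summit and in 0.541%, 11.9%, 3.24% and 5.41% of those with an anti-Helios summit. GC content was 56.7% (Emsy) to 72.3% (Ncor1) in the 6 windows, with a median of 52.7% over all windows and 61.3% and 64.0% over windows with an anti-Eos and an anti-Helios summit. GC content thus differed between the sets compared, and a match is a description of the letters, not of binding.

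Brpf1 encodes a scaffold subunit of the MOZ and MORF histone acetyltransferase complexes, which carries domains that read histone marks. Its anti-Eos peak (chromosome 6, 113306445 to 113306973) had the highest fold of all 1106 anti-Eos peaks, 35.7, with 58 fragments at the summit (Poisson interval 44.0 to 75). The anti-Helios peak (113306478 to 113306934) lay wholly within it and had a fold of 10.0, with 55 fragments (41.4 to 71.6), which placed it at rank 82 of 469 by fold. The summits were 11 bp apart, 16 and 5 bp outside the annotated gene, and 290 and 279 bp before the start of Brpf1 in the promoter table. The ratio of the folds was 3.55, the fifth highest among the 310 overlapping pairs of the series. The fragment counts did not differ in this way. By fragments the peaks ranked 7 of 1106 and 12 of 469, and the ratio of fragments scaled to library depth was 1.41 (exact binomial interval 0.958 to 2.08). The local background, recovered from the same fold and p-value, was 0.693 control fragments for anti-Eos and 4.0 for anti-Helios. Its part in the fold ratio was not tested. The next protein-coding gene on the other side, Cpne9, ended 1276 and 1287 bp from the summits, so the site lies between these genes. Beyond the far end of Brpf1, summits 2049 bp (anti-Eos, 13.5) and 1988 bp away (anti-Helios, 9.82) went to Ogg1 by the rule and are the closest ones left out.

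Arid1a encodes the DNA-binding subunit that defines the canonical BAF form of the SWI/SNF remodelling complex. Both antibodies had a peak at its annotated start, and each had a further peak with no partner in the other list. The absence of a partner peak was not tested as a difference. At the start the anti-Eos peak (chromosome 4, 133756719 to 133757060) had a fold of 7.38 and 12 fragments (6.20 to 21.0), and the anti-Helios peak (133756782 to 133757029) a fold of 10.2 and 18 fragments (10.7 to 28.4). The summits stood 30 and 142 bp before the start, 112 bp apart, which is further than the median of 30.5 bp over all pairs (interquartile range 13 to 64). A further anti-Eos peak lay upstream, with its summit 647 bp before the start (133757304 to 133757433, fold 4.85, 13 fragments), and had no anti-Helios partner. A further anti-Helios peak lay inside the gene, with its summit 428 bp before an internal start (133754313 to 133754498, fold 12.4, 22 fragments), and had no anti-Eos partner. That peak ranked 30 of 469 anti-Helios peaks by fold, while the upstream anti-Eos peak ranked 1024 of 1106. Of the genes with an anti-Eos summit 14.8% held 2 or more, and of those with an anti-Helios summit 6.91%.

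Chd3 encodes a remodelling ATPase of the NuRD complex. It carried a single anti-Eos peak inside the gene (chromosome 11, 69366521 to 69366681) with a fold of 9.78 and 18 fragments (10.7 to 28.4) over a local background of 1.0 control fragments. Its summit was 2912 bp from the nearer gene end and 2403 bp from an end of the lncRNA gene Gm32483. The nearest anti-Helios summit was 388822 bp from the gene, at Polr2a. An anti-Eos peak 40217 bp away went to Kdm6b by the rule (fold 5.20) and is the closest one left out at Chd3.

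Wdr5 encodes a WD-repeat protein that holds together the COMPASS histone H3 lysine 4 methyltransferases. The peaks assigned to it were among the best supported of the 9 genes, but they did not lie at Wdr5 itself. The anti-Eos peak (chromosome 2, 27540137 to 27540503) had a fold of 14.7 and 22 fragments (13.8 to 33.3), and the anti-Helios peak (27540175 to 27540331) a fold of 14.0 and 25 fragments (16.2 to 36.9). Both folds were in the upper 5% of their lists, at rank 35 of 1106 and 20 of 469. The summits were 5 bp apart and stood 3706 and 3711 bp past the end of Wdr5, 25094 and 25099 bp downstream of its start. They were 185 and 180 bp before the annotated start of the lncRNA gene Gm13421, whose promoter window is the one printed above. The next protein-coding gene was Brd3, 32584 and 32589 bp away. Fold ratio (1.05) and depth-scaled fragment ratio (1.18, interval 0.633 to 2.17) were both near 1, and both local backgrounds were below 1 control fragment.

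Sin3a encodes the scaffold of the SIN3 histone deacetylase complex. Its single anti-Eos peak (chromosome 9, 57073702 to 57073929) had a fold of 9.81 and 15 fragments (8.40 to 24.7) over 0.670 control fragments. The summit lay inside the gene, 1798 bp downstream of the start, and 1365 bp from an end of the lncRNA gene 2700012I20Rik. The nearest anti-Helios summit was 512240 bp away, at Csk. The anti-Helios list held no peak below 9 fragments, but that count is not a fixed limit of detection. A signal at Chd3 or Sin3a could have gone unlisted, and the absence of a peak was not tested as a difference.

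Ncor1 encodes the nuclear receptor corepressor that brings histone deacetylase 3 to repressed genes. It was the only one of the 9 genes with an anti-Helios peak and no anti-Eos peak. The peak (chromosome 11, 62457301 to 62457432) had a fold of 7.25 and 13 fragments (6.92 to 22.2) over 0.743 control fragments, below the median of its list. The summit was inside the annotated gene, 22 bp from its end, and 60 bp before the start in the promoter table. Pigl, on the other side, had its end 1049 bp from the summit. The nearest anti-Eos summit was 662380 bp from the gene, at Grap. The anti-Eos list held no peak below 7 fragments, which is likewise not a fixed limit of detection. The absence of an anti-Eos peak was not tested as a difference.

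Emsy encodes a protein known from the complex of SIN3B and the histone demethylase KDM5A. The antibodies shared 1 place at its start and anti-Eos alone gave 3 peaks beyond its other end. At the start the anti-Eos peak (chromosome 7, 98656661 to 98656844) had a fold of 7.05 and 26 fragments (17.0 to 38.1), and the anti-Helios peak (98656651 to 98656900) a fold of 8.75 and 38 fragments (26.9 to 52.2). Their summits were 12 bp apart and 142 and 130 bp before the start in the promoter table. Both were inside the annotated gene, 108 and 120 bp from the gene end on that side. Both stood on a local background of 3.0 control fragments, and the depth-scaled fragment ratio was 0.915 (interval 0.533 to 1.55). The 3 other anti-Eos peaks clustered 22214 to 24763 bp past the end of Emsy, at 98562352 to 98562477, 98563112 to 98563354 and 98564793 to 98564985. Their folds were 5.46, 4.85 and 6.49, with 11, 13 and 11 fragments and -log10 q of 3.92, 3.61 and 5.37, and the folds were all below the median of the list. Of the genes with an anti-Eos summit, 0.522% held 4 or more. The next protein-coding gene on the far side of this cluster was Lrrc32, 60536 to 63085 bp from the summits. Lrrc32 encodes GARP, the Treg surface protein that holds latent TGF-beta, and was named here after the values were seen. The interval between Emsy and Lrrc32 is known to contain an enhancer that acts on Lrrc32 in Treg cells, and assignment by the nearest gene end cannot tell which gene a peak concerns.

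Ncoa2 encodes a p160 coactivator of nuclear receptors. Its shared place lay inside the gene, with anti-Eos (chromosome 1, 13372553 to 13372875) at a fold of 6.58 and 18 fragments (10.7 to 28.4) and anti-Helios (13372578 to 13372827) at a fold of 6.32 and 13 fragments (6.92 to 22.2). Both were below the median of their list. The summits were 167 bp apart, the widest gap of the 6 shared places, and 1429 and 1596 bp from the nearer gene end. The folds gave a ratio of 1.04 and the depth-scaled fragments 1.85 (interval 0.858 to 4.11), over 2.0 and 1.0 control fragments.

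Ldb1 encodes a LIM domain-binding adaptor that bridges distant regulatory elements, for example in GATA and LMO2 complexes. Its shared place lay inside the gene, 8109 and 8133 bp from the nearer gene end, but at an internal start. The anti-Eos summit was 13 bp and the anti-Helios summit 37 bp before that start. The anti-Eos peak (chromosome 19, 46039549 to 46039775) had a fold of 7.33, and the anti-Helios peak (46039545 to 46039732) a fold of 15.7, rank 553 of 1106 and 9 of 469. The ratio of folds was 0.466, the fourth lowest of the 310 pairs. Both summits had 34 fragments (23.5 to 47.5), and the depth-scaled ratio was 1.34 (interval 0.807 to 2.22). As at Brpf1, the local backgrounds were unequal, here at 4.0 control fragments for anti-Eos and 1.0 for anti-Helios. An anti-Helios peak 8293 bp from Ldb1 went to Pprc1 by the rule (fold 7.02) and is the closest one left out there.

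**Figure D2:**
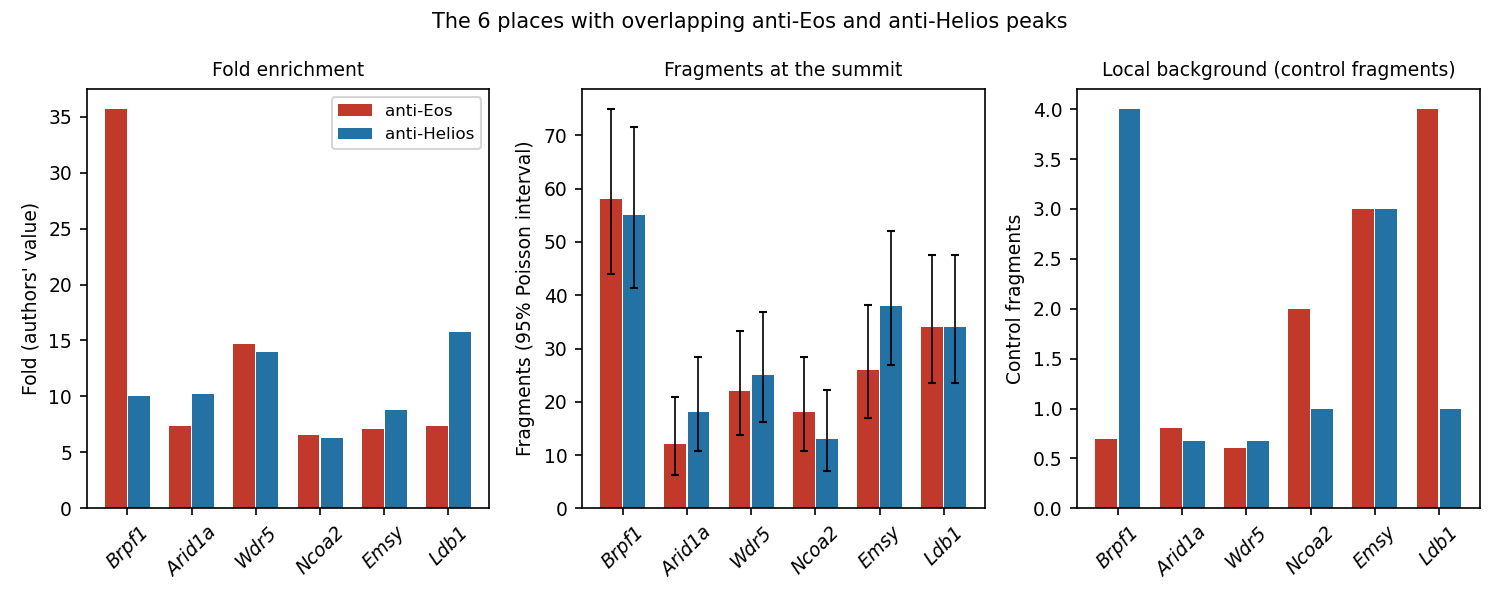
Fold enrichment, fragments at the summit with 95% Poisson intervals, and local background in control fragments, for anti-Eos (red) and anti-Helios (blue) at the 6 shared places. Folds differ most at Brpf1 and Ldb1, where the fragment counts, not scaled to depth, are close (58 and 55, 34 and 34) and the local backgrounds are not.

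The folds of the antibodies thus stood furthest apart at Brpf1 and Ldb1, where the fragment counts, not scaled to depth, were close. Scaled to depth, the ratios there were 1.41 and 1.34, within a range of 0.892 (Arid1a) to 1.85 (Ncoa2) over the 6 places. The Poisson intervals of the summit fragments overlapped at all 6 places, but they are not scaled to depth, so their overlap does not compare the antibodies. A local background more than 0.01 above 3 control fragments, a margin for rounding, occurred at 1 of the 12 anti-Eos peaks (Ldb1, beside 2.26% of the list) and at 1 of the 8 anti-Helios peaks (Brpf1, beside 5.97%), while both Emsy peaks at the start stood at 3.0 within that margin. When folds were recomputed over the genome-wide background of each list, Brpf1 had 38.3 and 30.1 and Ldb1 22.7 and 18.8 for anti-Eos and anti-Helios. The anti-Eos fold was the higher at 3 of the 6 places, beside 58.1% of all pairs. With depth-scaled fragments the anti-Eos value was the higher at 4 of the 6, beside 77.1% of all pairs, and with folds over the genome-wide background likewise at 4, since Ldb1 turned. Over all 310 pairs the fold ratio had a median of 1.06 (interquartile range 0.817 to 1.48), and for 107 pairs the fold ratio and the depth-scaled fragment ratio lay on opposite sides of 1. Local background rests on few control fragments at each place, and its part in the folds, here or at other genes, was not tested.

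**Figure D3:**
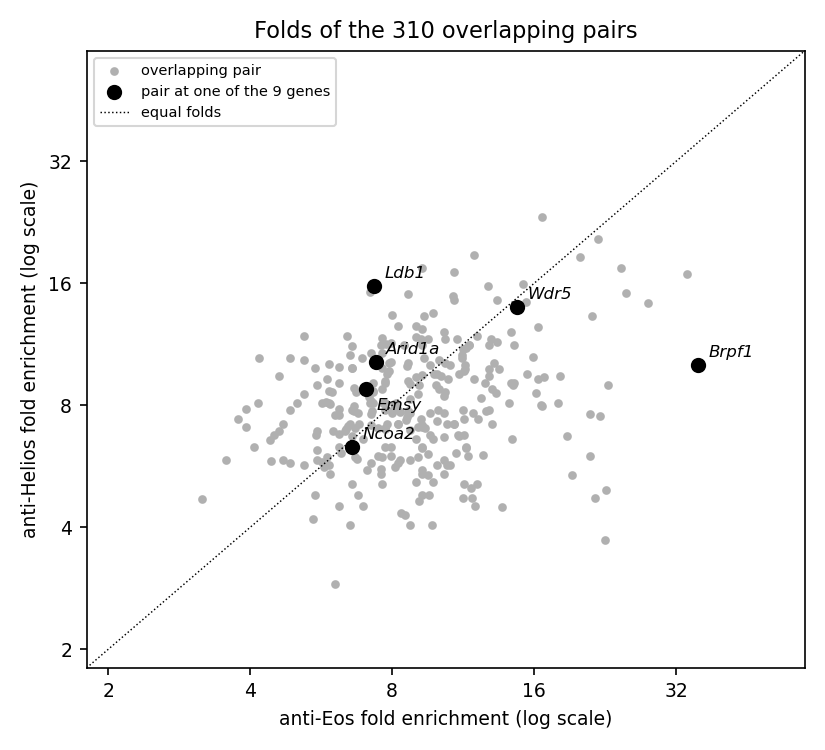
anti-Helios against anti-Eos fold enrichment (both log scale) for the 310 overlapping pairs (grey) with the 6 pairs of these genes in black and the line of equal folds dotted. Brpf1 is the farthest to the right at 35.7 and Ldb1 lies on the upper left edge at 7.33 and 15.7.

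By the pair of folds, the places most like Brpf1 were assigned to Tiam1 (27.9 and 14.3, at a distance of 0.62 on the log2 scale), Scaf8 and Prss2. Those most like Ldb1 were at Ddx20 (7.17 and 15.3, 0.05), Il6ra and Slx1b, and those most like Wdr5 at Cdiptos (15.4 and 14.4, 0.08), Vps26c and Izumo4. The nearest to Arid1a were at Tmsb4x (7.62 and 9.90, 0.07), Yy1 and Arid4a. Those nearest to Emsy were at Ptpn7, Rgs10 and Ddx52, and those nearest to Ncoa2 at 4932438H23Rik, Lrrc8a and Zzz3. Likeness was measured over 2 libraries and describes the folds only.

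The summits were then placed relative to gene ends and starts. Of the 12 anti-Eos summits 4 lay within 1 kb of a gene end, beside 39.5% of the list, and of the 8 anti-Helios summits 4, beside 51.0%. This class missed Ldb1 and the internal place in Arid1a, which are over 1 kb from a gene end yet within 1 kb of an internal start, and the place beside Wdr5, which is within 1 kb of a lncRNA start. The annotated starts of Chd3 and Ncoa2 were not used here, so their summits could be placed only relative to gene ends. With any start in the promoter table counted, 6 of the 12 anti-Eos summits were within 1 kb of a start (39.1% of the list) and 7 of the 8 anti-Helios summits (51.4%). All 13 lay on the upstream side, beside 60.4% of the anti-Eos and 56.8% of the anti-Helios summits within 1 kb of a start. Upstream of a start did not always mean outside the gene, since some starts lie within it. The summits at the start of Emsy, at Ncor1, at Ldb1 and at the internal place in Arid1a were inside the annotated gene. These 13 summits mark 8 distinct places, since 5 places were shared and count for both antibodies.

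**Figure D4:**
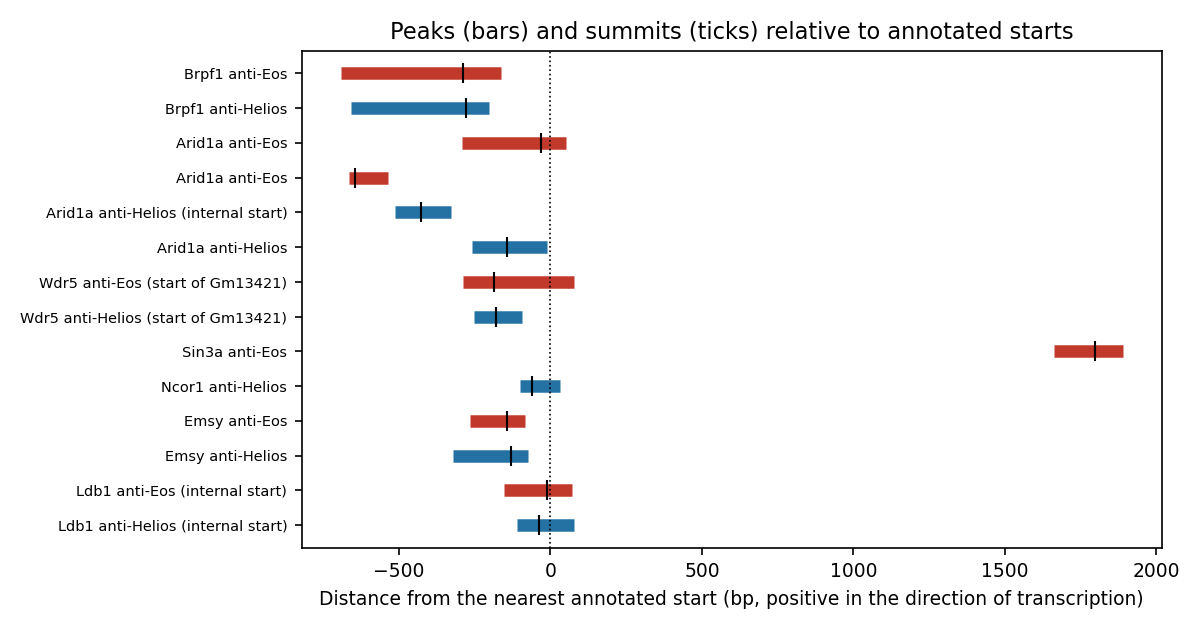
Anti-Eos (red) and anti-Helios (blue) peaks as bars and their summits as ticks, in bp from the nearest annotated start, positive in the direction of transcription. Apart from the Sin3a summit at 1798 bp, all summits shown lie between 647 and 13 bp before a start.

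Other subunits of the same complexes were then counted, from 11 lists of chromatin genes with 152 genes besides the 9. An anti-Eos summit was found at 14 of the 152 (9.21%, beside 4.38% of all protein-coding genes) and an anti-Helios summit at 4 (2.63%, beside 2.12%), and 138 had neither. All 4 genes with an anti-Helios summit also had an anti-Eos summit, beside 337 of the 463 protein-coding genes with an anti-Helios summit. The lists were written with earlier results on these data known, so the shares are a description.

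Among the SIN3 genes, Arid4a and Ing1 had overlapping peaks of both antibodies and Kdm5a an anti-Eos peak. Arid4a had folds of 7.62 and 10.8 with 21 and 23 fragments inside the gene, 567 and 546 bp from an end, and a further anti-Eos peak (4.63). Ing1, which encodes a reader of methylated histone H3, had folds of 9.97 and 7.30 with 22 and 13 fragments, 139 and 115 bp from its end. The anti-Eos summit within Kdm5a (6.17) was 292 bp from its end and only 22 bp from that of Ccdc77.

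Chd8, a chromodomain remodeller outside NuRD, had folds of 10.5 and 7.19 with 22 and 31 fragments, 162 and 215 bp from its end. Ssbp4, which encodes a partner of LDB1, had peaks outside the gene with folds of 8.62 and 9.99 at the shared place and an anti-Eos peak of 9.51 beside it. Ssbp3, of the same family, had an anti-Eos peak deep inside the gene (6.48, 59549 bp from an end). The acetyltransferase genes Ep300 (9.26, 813 bp from an end) and Kat2b (7.72, 139 bp) had anti-Eos peaks, as did Kat7 (4.85, 26 bp), the catalytic subunit of HBO1 complexes.

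Bcor (8.75), a subunit of a Polycomb repressive complex, was the only one of 28 Polycomb genes with a peak. The remaining genes had anti-Eos peaks alone, at Smarce1 (6.65), Setd1b (6.17), Smarca5 (5.15) and Hcfc1 (4.78), each resting on 7 to 11 fragments. The other 14 NuRD genes, the other 5 NCoR and SMRT genes and the 9 CoREST and CtBP genes had no peak of either antibody. Over all protein-coding genes 4.38% had an anti-Eos and 2.12% an anti-Helios summit, so lists this short can hold few or none. Chd3 and Ncor1 were the single genes of their complexes with a peak, and the rule chose them for having a summit.

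**Figure D5:**
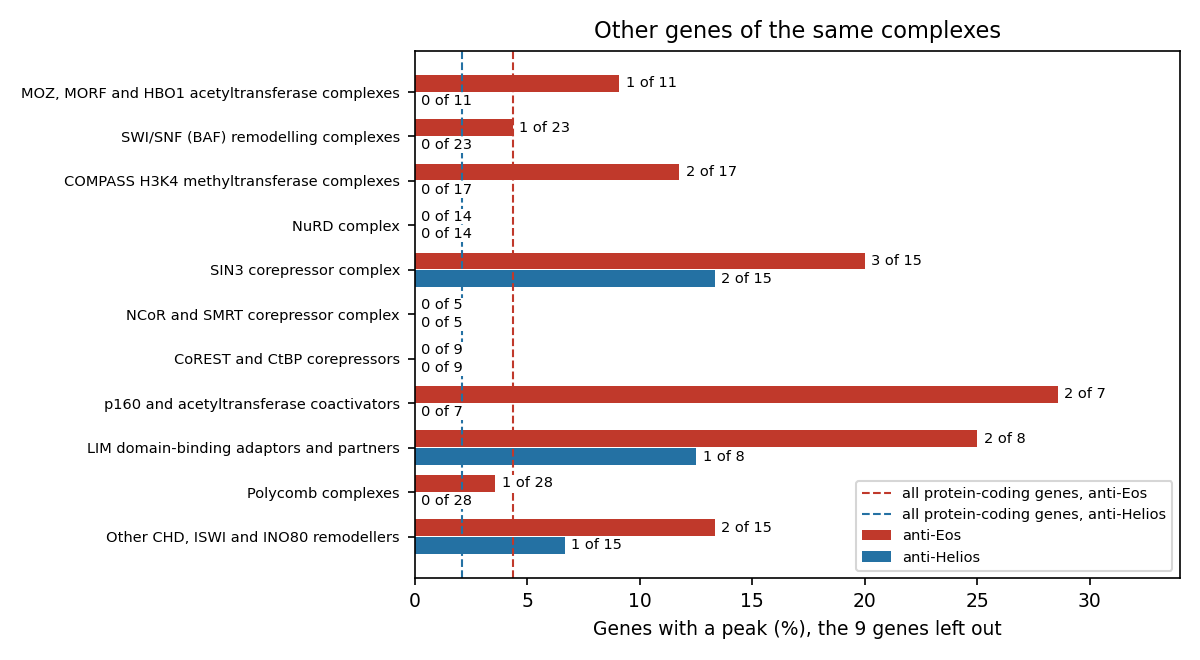
Share of genes with an anti-Eos (red) or anti-Helios (blue) peak in each of 11 chromatin lists, the 9 genes left out, with the number of genes beside each bar and the share over all protein-coding genes as dashed lines (4.38% and 2.12%). Each bar rests on 0 to 3 genes.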

How the data were processed

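The analysis started from 1 peak list for each wild-type library, in build mm10 (GRCm38). Per the submitters' processing notes, the tools included cutadapt 4.4, BWA 0.7.1, SAMtools 1.17, Picard and deepTools 3.5.1. No source used here names the peak caller, its settings or the control. Each deposited peak has the authors' fold enrichment (a ratio), -log10 of the p-value and of the q-value, a whole-number score and a summit offset. The lowest deposited -log10 q values were 2.08 (anti-Eos) and 2.24 (anti-Helios).

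The 9 genes and the gene lists were chosen with earlier results of these data known. A summit was assigned to every protein-coding gene that contains it and to the gene with the nearest end within 100 kb, and was near within 1 kb. All 9 genes are named with every peak, other listed genes where they hold a peak, and for each shared place the 3 most alike in log2 fold. Fragments were recovered by solving fold as scaled fragments plus 1 over background plus 1, with p an upper Poisson tail. This gave both deposited values for 100% of peaks within a relative tolerance of 0.0001, with scalings of 1 and 0.895, and is an inference from the values. The solver was tested on simulated data. A control fragment was the commonest step of the background. Depth was estimated from the genome-wide background (0.542 and 0.671 fragments) and the smallest peak width (115 and 119 bp). Promoter windows of 7 of the 9 genes were in the RefSeq table. Python 3.11.15, pandas 2.3.3 and SciPy 1.17.1 were used.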

Additional observations from a re-analysis of the deposited data

How the results depend on the processing

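Of 59 values recomputed under other settings, 52 kept their side and stayed within 1.5 times, or within the counting interval, of the value given. Most were small counts with wide counting intervals, so this rule is lenient. It passed, for example, the Ncoa2 ratio of 1.04 becoming 1.85 with depth-scaled fragments. With only as many anti-Eos peaks as the anti-Helios list holds, the 9 genes had 6 anti-Eos peaks in place of 12, of which 2 in place of 4 were near a gene end, and the fixed chromatin lists had 12 genes with an anti-Eos peak in place of 22. That setting tests fewer peaks. The anti-Eos to anti-Helios ratio at Brpf1 fell from 3.55 to 1.41 with depth-scaled fragments and to 1.27 with folds over the genome-wide background, a setting chosen after the data were seen. At Ldb1 it turned from 0.466 to 1.34 and 1.21. Both settings leave out the local background, which differed there. Assignment within 10 kb dropped the 3 anti-Eos peaks beyond Emsy (9 in place of 12), and a -log10 q of at least 5 likewise left 9. Without peaks more than 0.01 above 3 control fragments, 4 in place of 6 genes had overlapping peaks, since Brpf1 and Ldb1 each lose 1 partner, and with an overlap of 50% of each peak 5 did. Peaks rested on 11 to 58 fragments at these genes. No paired analysis was possible because each group is 1 library.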
